A study of Homo sapiens with 95 samples.

Results

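Cytosolic ribosomal protein genes were selected by symbol: RPL or RPS followed by a number and at most 1 suffix (A, X or L, with an optional digit), together with the acidic stalk proteins RPLP0, RPLP1 and RPLP2 and with RPSA, at a mean of at least 1 counted read per sample. Of 27978 listed symbols 84 met the name rule, and 80 of these reached the read minimum and are called members here. They comprised 42 large-subunit genes, 29 small-subunit genes, the 3 stalk genes and 6 paralogs, which are second gene copies with diverged sequence (RPL3L, RPL7L1, RPL22L1, RPL26L1, RPL39L and RPS27L). The members were measured by sparse full length (SFL) sequencing, a pooled RNA-seq protocol that barcodes each sample early, in 95 samples of AALE cells. AALE cells are human bronchial epithelium that was immortalized, and the sources used here do not give its passage, the length of exposure or whether each perturbed line is a single clone. Cells with CRISPR knockout of FAT1 or of CDKN2A were set against GFP, cells given the same Cas9-EGFP plasmid without a guide RNA. Cells overexpressing NRF2 (gene NFE2L2), FGFR1, NRG1 or PIK3CA were set against HCRED, cells with the HcRed control vector. Each of the 8 lines received DMSO, the solvent, or 1 of 3 chemicals of tobacco smoke. These were NNK, a nitrosamine, at 490 μM, BaP, the polycyclic hydrocarbon benzo(a)pyrene, at 173 μM, and CSC, condensed smoke of cigarettes, at 24 μg/ml. There were 3 samples in 31 combinations and 2 in CSC-treated FGFR1. The samples of a combination are biological replicates by the study's description, with no statement of how they were kept apart. Every perturbation was represented by 1 line, so p-values measure only the spread between these samples, and a difference between lines cannot be told apart from one between clones or passages.

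Cytosolic ribosomal proteins and the ribosomal RNAs form the small subunit, which reads the messenger RNA, and the large subunit, which joins amino acids. Most of these genes are transcribed at high levels in every growing cell, and their transcripts typically begin with a cytosine followed by an uninterrupted run of pyrimidines, the terminal oligopyrimidine (TOP) motif, through which growth signalling controls their translation. Several ribosomal proteins, among them RPL5, RPL11 and RPL23, also bind MDM2, the ubiquitin ligase that keeps p53 low, when ribosome assembly is disturbed. Bulk counts of transcripts measure none of these protein functions.

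The start-site sequences show the feature that most members share and that the choice by name did not use. RefSeq models of GRCh38.p14 listed a start for 64 of the 80 members, and 45 of the 64 had a listed start at which C was followed directly by at least 4 pyrimidines on the transcript strand. Counted over start sites, the run stood at 45 of 80 starts of members (56.3%) and at 1429 of all 35116 listed starts (4.07%). The windows below hold 25 bases before the start and 25 from it, read 5′ to 3′ on the transcript strand, with the pyrimidine run in capitals. They show the genes to which the results return: the reference members RPLP0 and RPS6, RPS21 and RPS14, which were called in 3 of the 4 overexpression lines, and RPL22 with its paralog RPL22L1.
RPLP0, chr12:120201087-120201136, minus strand: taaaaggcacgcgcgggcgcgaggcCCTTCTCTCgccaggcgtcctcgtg
RPS6, chr9:19380212-19380261, minus strand: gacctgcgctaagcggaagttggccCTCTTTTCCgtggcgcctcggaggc
RPS21, chr20:62387078-62387127, plus strand: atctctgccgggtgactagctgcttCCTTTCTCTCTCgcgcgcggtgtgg
RPS14, chr5:150449715-150449764, minus strand: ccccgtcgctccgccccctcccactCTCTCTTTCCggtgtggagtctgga
RPL22, chr1:6199571-6199620, minus strand: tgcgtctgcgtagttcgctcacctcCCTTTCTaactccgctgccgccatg
RPL22L1, chr3:170870171-170870220, minus strand: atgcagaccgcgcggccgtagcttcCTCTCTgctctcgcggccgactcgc

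The paralogs RPL26L1, RPS27L and RPL7L1 lack the run at the listed start shown here for contrast.
RPL26L1, chr5:172958704-172958753, plus strand: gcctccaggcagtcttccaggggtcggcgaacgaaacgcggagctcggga
RPS27L, chr15:63157453-63157502, minus strand: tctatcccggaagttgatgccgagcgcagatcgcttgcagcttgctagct
RPL7L1, chr6:42879591-42879640, plus strand: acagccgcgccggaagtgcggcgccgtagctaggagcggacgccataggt

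A listed start is an annotation and not a start observed in these cells. Over the members the median log2 difference hardly separated genes with and without the run: in FAT1 against GFP it was 0.44 in the 45 with the run and 0.39 in the 19 without, and in NRG1 against HCRED it was 0.14 and 0.17.

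Total counted reads ranged from 287446 to 2116383 per sample with a median of 934235, and no pair of samples held identical counts. The airway basal markers KRT5, KRT14, KRT17, TP63, CDH1 and EPCAM had reads in 95 of 95 samples. Of the markers of other cell types, CD3E was at 0 in all samples and CDH5 had reads in 1, PTPRC in 5, PDGFRA in 14, COL1A2 in 15, PECAM1 in 18, VWF in 26 and DCN in 56, while CD68 (median 13.7 CPM, the TMM-normalised read count) and COL1A1 (median 25.7 CPM) were read in nearly all or all. The targeted gene followed the label in every line: mean FAT1 was 103 CPM against 365 in GFP, CDKN2A 48.8 against 106, and against HCRED NFE2L2 was 1443 against 215, FGFR1 1180.5 against 52.3, NRG1 5807 against 19.1 and PIK3CA 518 against 83.4. In the CDKN2A line most genes around RPS6, which starts 2.59 Mb from CDKN2A, were lower as well, as given below.

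The markers RPLP0, the scaffold of the ribosomal stalk, and RPS6, the small-subunit protein phosphorylated by S6 kinase, were both read in every line. Levels between genes were compared as mean CPM per kb of the MANE Select transcript over 95 samples. Among the highest were RPL19 at 966, RPL30 at 861, RPS6 at 693 and the stalk gene RPLP2 at 692 CPM per kb, against a median of 196 over the 80 members. Among the 73 members that averaged at least 10 reads, the lowest were RPS27L at 5.55, RPL7 at 8.74, RPS28 at 18.2, RPL22L1 at 18.3 and RPL39L at 20.5 CPM per kb. RPS27L, RPL22L1 and RPL39L are paralogs, whereas RPL7 and RPS28 encode core subunits of every ribosome. Some of the annotated transcripts have a very long last exon, and per kb of coding sequence RPS27L stood at 135, RPL7 at 14.5 and RPS28 at 117 CPM, with RPS6 at 1269.7 and a median of 441. The order of the other levels also depended on this choice (Spearman's rho over the 73 members that averaged at least 10 reads, which share the same libraries, 0.67).

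Ribosomal protein genes have many near-identical processed copies, and a read from a stretch shared with a copy has no unique alignment. For each gene the share of 75-base windows of the transcript without a second exact copy in the GRCh37 genome was taken as a description. The 8 of the 84 genes with under 20% of such windows had a median of 12.8 and at most 97.5 CPM per kb, while the 38 with over 90% had a median of 226. Genes below the read minimum included RPS18, RPL21 and RPL10L, with mean counts of 0.0211, 0.0105 and 0. RPS18 is a core small-subunit gene, and 65.9% of its windows had no second copy, whereas none of the windows of RPL21 did. Whether the cells held these transcripts cannot be told from these values. Of annotated ribosomal protein pseudogenes 31 were listed, and they took 0.857 reads for every 100 reads of members, RPSAP58 having the highest mean count of 68.0.

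The members took a median of 1.86% of a sample's counted reads (range 1.58% to 2.51%). By line the mean share was highest after FAT1 knockout, at 2.38% ± 0.113 (SD, n = 12; range 2.13% to 2.51%), and lowest after CDKN2A knockout, at 1.66% ± 0.0711 (SD, n = 12; range 1.58% to 1.75%). The control of both, GFP, had 1.74% ± 0.0832 (SD, n = 12; range 1.65% to 1.89%). FAT1 samples lay above all GFP samples, and CDKN2A samples overlapped with them. Among overexpression lines NRF2 had 1.93% ± 0.0818 (SD, n = 12; range 1.74% to 2.03%) and NRG1 1.90% ± 0.126 (SD, n = 12; range 1.62% to 2.16%). FGFR1 had 1.88% ± 0.0863 (SD, n = 11; range 1.74% to 2.01%) and PIK3CA 1.87% ± 0.0798 (SD, n = 12; range 1.77% to 2.04%). Their control HCRED had 1.78% ± 0.0695 (SD, n = 12; range 1.69% to 1.93%), so neighbouring lines in this order overlapped and only FAT1 stood apart, with 1 NRG1 sample reaching into its range. With BaP the mean share was above that with DMSO in 8 of 8 lines, by a median of 0.0588 percentage points, a gap below the SD of 0.0876 points between replicates and as small as 0.00553 in CDKN2A and 0.00909 in NRF2, while CSC and NNK were each above in 4 of 8. The share carries no test because it sums over chosen genes, and in bulk samples fewer cells of a type and less RNA per cell cannot be told apart.

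**Figure D1:**
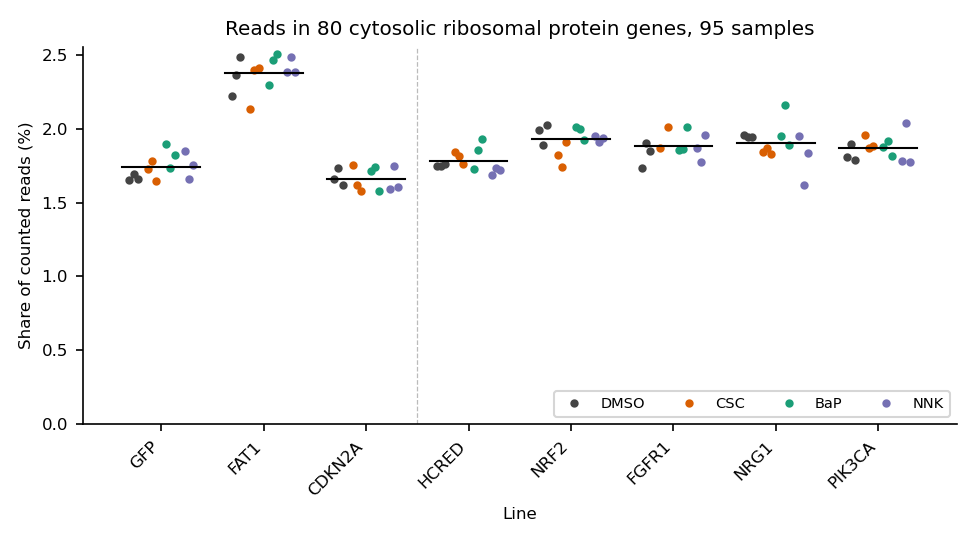
Share of counted reads in the 80 ribosomal protein genes, in percent, for each of the 95 samples (points, by treatment) of the 8 lines, with the mean of each line. The 12 FAT1 samples lie between 2.13% and 2.51%, above the 12 GFP samples at 1.65% to 1.89%, and the CDKN2A line has the lowest mean, with samples at 1.58% to 1.75% that overlap those of GFP.

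Loss of FAT1, a protocadherin of the cell surface, went with higher transcript levels of ribosomal proteins in both subunits. In FAT1 against GFP over the 4 treatments, 59 of 79 tested members rose and 3 fell, with 25% of all tested genes higher and 23.9% lower (48.9% in either direction). The median log2 difference of the members was 0.40, against 0.028 over all genes. Large-subunit genes including the stalk (35 of 45 higher and 1 lower) and small-subunit genes (23 of 29 higher and 1 lower) had similar shares of calls, with medians of 0.43 and 0.44, while of 5 tested paralogs 1 rose and 1 fell. All 12 FAT1 samples exceeded all 12 GFP samples in 17 members (1.53% of all genes) and lay below them in 1, RPL7L1 (2.65% of all genes). RPL3L was below the read minimum in these 24 samples and was not tested. With BaP-treated samples only, 3 against 3, 35 members passed in either direction, with 21.4% of all genes.

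The small-subunit gene RPS2, whose product sits near the entry of the mRNA channel, had the largest rise in FAT1. Its level was 114 to 202 CPM (median 168) in GFP and 262 to 501 CPM (median 444) in FAT1. The ranges did not overlap, and the log2 difference was 1.33 (SE 0.058, adjusted p = 1.01e-32). HCRED, the control of the other lines, had 231 to 395 CPM (median 316), so GFP was the lower of the control lines. RPL22L1, the paralog that can take the place of RPL22 in the large subunit, was at 5.66 to 22.9 CPM (median 14.9) in GFP and at 24.2 to 35.7 CPM (median 29.9) in FAT1. These groups were also separate, with a log2 difference of 1.08 (SE 0.16, adjusted p = 2.43e-08). RPL10, an X-linked large-subunit gene whose product joins late in assembly, was at 70.9 to 130.0 CPM (median 98.4) in FAT1 against 33.5 to 78.6 CPM (median 49.2) in GFP, where the ranges overlapped, with a log2 difference of 0.91 (SE 0.095, adjusted p = 2.18e-13).

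RPS6 was also higher in FAT1, at 1086 to 1710.4 CPM (median 1373) against 768 to 1160.5 CPM (median 903) in GFP, which left a small overlap, with a log2 difference of 0.53 (SE 0.034, adjusted p = 7.39e-23). Falls were few and mostly small. RPL36A, an X-linked large-subunit gene, was at 3.49 to 18.8 CPM (median 9.52) against 8.12 to 28.2 CPM (median 14.1), widely overlapping groups with a log2 difference of -0.65 (SE 0.20, adjusted p = 0.00538). RPL7L1, a paralog that acts in large-subunit assembly, was at 107 to 148 CPM (median 132) against 150.1 to 188 CPM (median 166), without overlap, and differed by -0.40 (SE 0.061, adjusted p = 5.61e-08). RPS19, the gene most often mutated in Diamond-Blackfan anaemia, differed by -0.13 (SE 0.050, adjusted p = 0.0195), and in BaP-treated samples alone, an alternative added after seeing the data, by 0.0041.

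**Figure D2:**
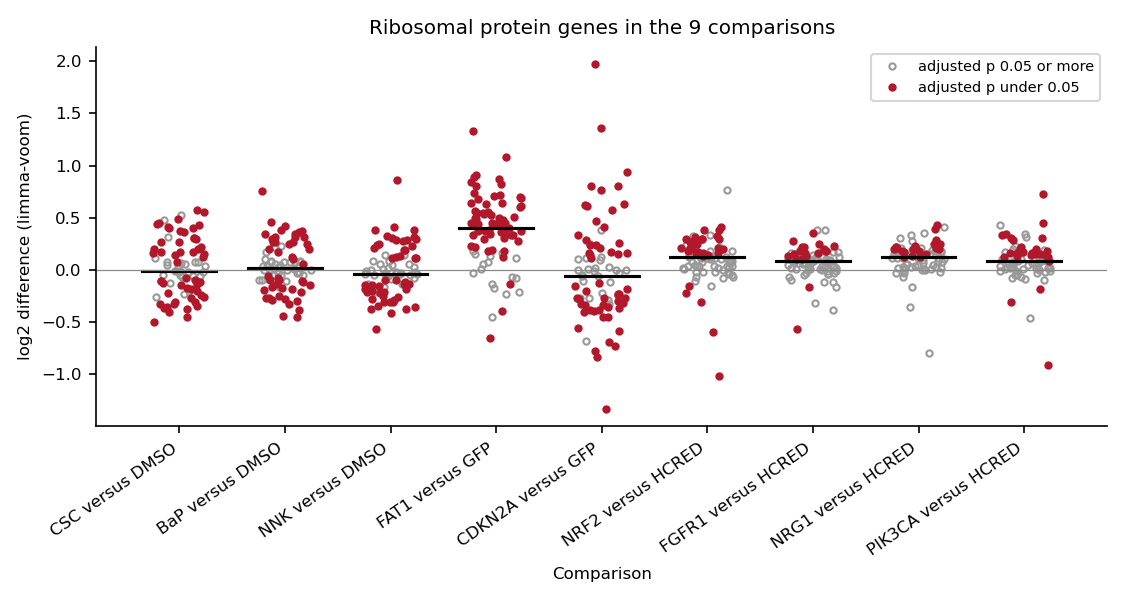
Log2 difference of each tested ribosomal protein gene (points) in the 9 comparisons, 3 chemicals against DMSO and 6 lines against their control, on a common vertical axis with called genes marked. In FAT1 against GFP 59 members rose and 3 fell, while the chemicals and CDKN2A spread members to both sides of 0.

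CDKN2A encodes the cell cycle inhibitors p16 and ARF. After its knockout members lay on both sides of GFP. Of 80 tested, 24 rose and 31 fell, with 29.4% of all tested genes higher and 28.3% lower (57.6% in either direction). The median was -0.055 against 0.00140 over all genes. Large-subunit genes including the stalk fell more often than they rose (13 of 45 higher and 21 lower), and small-subunit genes did both about equally (8 of 29 higher and 9 lower). Samples of the lines did not overlap in 5 members that were higher (4.62% of all genes) and 6 that were lower (3.99%). GFP is shared with the FAT1 comparison, so the 2 sets of differences are not independent.

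RPL22, a large-subunit protein that also binds RNA outside the ribosome, had the largest fall after CDKN2A knockout. It was at 38.4 to 84.9 CPM (median 57.7) in GFP and at 14.0 to 32.6 CPM (median 23.5) in CDKN2A, with no overlap. The log2 difference was -1.33 (SE 0.12, adjusted p = 6.65e-15). Its paralog moved the other way in this line: RPL22L1 was at 16.7 to 34.1 CPM (median 25.4) against 5.66 to 22.9 CPM (median 14.9) in GFP, groups that overlapped at their edges, with a log2 difference of 0.80 (SE 0.17, adjusted p = 4.02e-05). Genes around RPL22L1 were higher in this line as well, as given below. RPS6 was at 314 to 670.3 CPM (median 533) against 768 to 1160.5 CPM (median 903) in GFP. Every CDKN2A sample was below every GFP sample, and the difference was -0.84 (SE 0.046, adjusted p = 7.53e-26). RPL13A, a large-subunit protein that can leave the ribosome to repress inflammatory transcripts, was at 59.3 to 111 CPM (median 85.6) against 122 to 185 CPM (median 159), again without overlap, and differed by -0.78 (SE 0.076, adjusted p = 4.68e-14).

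Rises after CDKN2A knockout were led by RPL39L, a paralog of RPL39 best known from testis. It was at 7.69 to 19.0 CPM (median 13.9) in GFP and at 25.03 to 57.6 CPM (median 35.8) in CDKN2A, and the groups were separate. The log2 difference was 1.36 (SE 0.15, adjusted p = 9.12e-12). Most genes around RPL39L were also higher in this line, by less, as given below. Its parent RPL39 differed by 0.62 (SE 0.12, adjusted p = 6.37e-06). Only 6.65% of the windows of RPL39 had no second copy, so its level is uncertain. RPS25, which some viral RNAs need to recruit ribosomes, was at 74.005 to 148 CPM (median 117) against 37.2 to 76.7 CPM (median 57.8), with a narrow overlap. It differed by 0.93 (SE 0.088, adjusted p = 7.43e-15). RPS7, another MDM2 binder, was at 85.8 to 149.5 CPM (median 119) against 54.7 to 78.4 CPM (median 67.8) without overlap, a difference of 0.80 (SE 0.085, adjusted p = 6.09e-13). The muscle paralog RPL3L, with a mean count under 10, was at 2.29 to 9.30 CPM (median 5.18) against 0 to 4.79 CPM (median 0.383), with values near the level of single reads, and differed by 1.97 (SE 0.37, adjusted p = 4.29e-06).

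The 4 overexpression lines shared the control HCRED, so a value that is unusual in HCRED enters all 4 comparisons, whose values are given side by side. In NRF2, the transcription factor of the antioxidant response, 24 members rose and 5 fell (10.4% of all tested genes higher, 11.2% lower), with a median of 0.12. In PIK3CA, the catalytic subunit of a lipid kinase upstream of mTOR, 26 rose and 3 fell (14% and 13.8%), with a median of 0.086. In NRG1, a ligand of ERBB receptors, 21 rose and 0 fell by limma-voom, 0 also at an unadjusted p under 0.05 and by edgeR and DESeq2 (5.86% and 4.91%), with a median of 0.13. In FGFR1, a receptor tyrosine kinase, 17 rose and 2 fell (7.25% and 6.23%), with a median of 0.086. In either direction 21.6% of all tested genes passed in NRF2, 27.8% in PIK3CA, 10.8% in NRG1 and 13.5% in FGFR1. The medians over all genes lay between -0.011 and 0.00443 in these comparisons. Rises were thus called more often among the members than among all genes in each line, with small differences that left the groups overlapping: the samples of the lines were separate in 1 higher and 1 lower member in NRF2 (0.358% and 0.492% of all genes), in 2 higher and 0 lower in PIK3CA (0.896% and 0.695%), and in 0 and 0 in FGFR1 (0.223% and 0.125%) and NRG1 (0.0915% and 0.155%).

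How many members passed 0.05 in the overexpression lines depended on the samples and the test. DESeq2's Wald test called 11 in FGFR1 (10.9% of all genes) and 13 in NRG1 (8.94%). With DMSO-treated samples only, 3 against 3, the total was 16 in NRF2, 7 in PIK3CA, 6 in NRG1 and 0 in FGFR1 by limma-voom (in FGFR1 9 at an unadjusted p under 0.05, and 0 by edgeR and by DESeq2), where the numbers from all treatments were 29, 29, 21 and 19. Of all genes 7.16%, 8.6%, 2.04% and 1.86% passed in these smaller fits, so in PIK3CA the members' share was near that of all genes. Without replicate 3 of every combination NRF2 had 19 members called (15.7% of all genes). PIK3CA had 17 without replicate 1 (19.7%) and 17 without replicate 2 (20.2%). NRG1 had 6, 12 and 13 without replicate 1, 2 and 3 (5.13%, 5.83% and 7.7%). FGFR1 had 11 and 7 without replicate 2 and 3 (7.22% and 8.69%).

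RPS21, a small-subunit protein, had the largest called fall of the members in both NRF2 and PIK3CA. It was at 79.3 to 157 CPM (median 127) in HCRED, 47.6 to 78.9 CPM (median 61.7) in NRF2 and 49.7 to 88.6 CPM (median 63.6) in PIK3CA. NRF2 lay wholly below HCRED and PIK3CA overlapped it slightly, with log2 differences of -1.01 (SE 0.089, adjusted p = 1.45e-15) and -0.92 (SE 0.081, adjusted p = 9.63e-16). In NRG1 it was at 119 to 229 CPM (median 162), above the median of HCRED with overlap, a difference of 0.43 (SE 0.078, adjusted p = 3.97e-05), and in FGFR1 at 75.1 to 142 CPM (median 107), with a difference of -0.16 (SE 0.075, adjusted p = 0.144) that did not pass.

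RPS14, a small-subunit protein needed for maturation of the small ribosomal RNA, rose in 3 of the 4 lines. It was at 248 to 325 CPM (median 291) in HCRED, 343 to 497 CPM (median 396) in PIK3CA, 314 to 429 CPM (median 394) in NRF2 and 255 to 416 CPM (median 352) in FGFR1. PIK3CA was separate from HCRED, and NRF2 and FGFR1 overlapped it. The log2 differences were 0.45 (SE 0.046, adjusted p = 4.72e-13), 0.41 (SE 0.046, adjusted p = 4.77e-11) and 0.27 (SE 0.053, adjusted p = 6.78e-05), and in NRG1 the value was 0.020 (adjusted p = 0.869). RPL30, a large-subunit protein, was at 457 to 599 CPM (median 502) in PIK3CA against 360.2 to 452 CPM (median 399), without overlap, and differed by 0.34 (SE 0.039, adjusted p = 2.49e-11). RPL4, a large-subunit protein lining the exit tunnel, was at 779 to 851 CPM (median 812) in NRF2 against 614 to 745 CPM (median 679.7), also without overlap, a difference of 0.26 (SE 0.032, adjusted p = 3.29e-10). It is named because it was the only separate higher member in that line.

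Other large differences in these lines included falls of RPSA, the laminin-binding small-subunit protein, in NRF2 (-0.31, SE 0.067, adjusted p = 0.000224), and of RPS3, which also takes part in DNA repair, in PIK3CA (-0.19, SE 0.046, adjusted p = 0.000955). The rises in NRF2 were led, after RPS14, by RPL29 (0.39, SE 0.059, adjusted p = 2.92e-07), and those in NRG1 after RPS21 by RPL39 (0.39, SE 0.13, adjusted p = 0.0297) and RPL13 (0.29, SE 0.057, adjusted p = 0.000168). RPL39, with 6.65% of windows without a second copy, was at -0.12 in the NNK-treated samples of NRG1 alone, an alternative added after seeing the data. In FGFR1 the rises were led by RPS27L (0.36, SE 0.12, adjusted p = 0.0318), followed by RPS14 and RPS12 (0.25, SE 0.060, adjusted p = 0.00207).

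The paralogs did not move as a group. RPL22L1 spanned the widest range of all members with a mean count of at least 10, 2.56 on the log2 scale over the 32 combination means, where the median member spanned 1.02 and the median of 10062 genes of that count 1.24. Against HCRED at 28.6 to 69.4 CPM (median 47.0), it was at 16.0 to 53.7 CPM (median 30.6) in NRF2 and 21.8 to 47.0 CPM (median 32.5) in FGFR1. These groups overlapped, and the differences were -0.60 (SE 0.12, adjusted p = 0.000132) and -0.56 (SE 0.12, adjusted p = 0.000263). In PIK3CA it was -0.31 (SE 0.11, adjusted p = 0.0209), with 0.016 in NNK-treated samples alone, and in NRG1 0.27 without passing. The median in FAT1, although above that of GFP, was below that of HCRED with overlapping ranges, and the control lines were not compared by a test. Parent RPL22 passed in CDKN2A and narrowly in NRF2 (0.26, SE 0.10, adjusted p = 0.0479).

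RPL26L1, which differs from RPL26 by few residues, was at 28.9 to 51.7 CPM (median 32.3) in PIK3CA and 22.0 to 37.4 CPM (median 28.1) in NRF2 against 10.6 to 31.5 CPM (median 22.7). The ranges overlapped, with differences of 0.73 (SE 0.13, adjusted p = 6.32e-06) and 0.38 (SE 0.14, adjusted p = 0.0376), while RPL26 was at 0.023 and -0.071 without passing. Only 65.4% of the windows of RPL26L1 had no second copy, so its level is uncertain. RPL7L1 fell in FGFR1 (-0.17, SE 0.059, adjusted p = 0.0496), and in CDKN2A (-0.24, SE 0.058, adjusted p = 0.000222), and its parent RPL7, with 36.4% of windows without a second copy, was at -0.38 and 0.10 there without passing. RPL3 rose in FAT1 (0.64, SE 0.045, adjusted p = 2.43e-21) and CDKN2A (0.28), and by 0.16 in NRF2, with -0.048 there in CSC-treated samples alone. RPS27L passed in FGFR1 and RPS27 in FAT1 (0.72, SE 0.31, adjusted p = 0.0449). RPS27 had a mean count under 10 and no reads in 7 samples. Under 20% of its windows had no second copy, so its level and this call are uncertain.

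**Figure D3:**
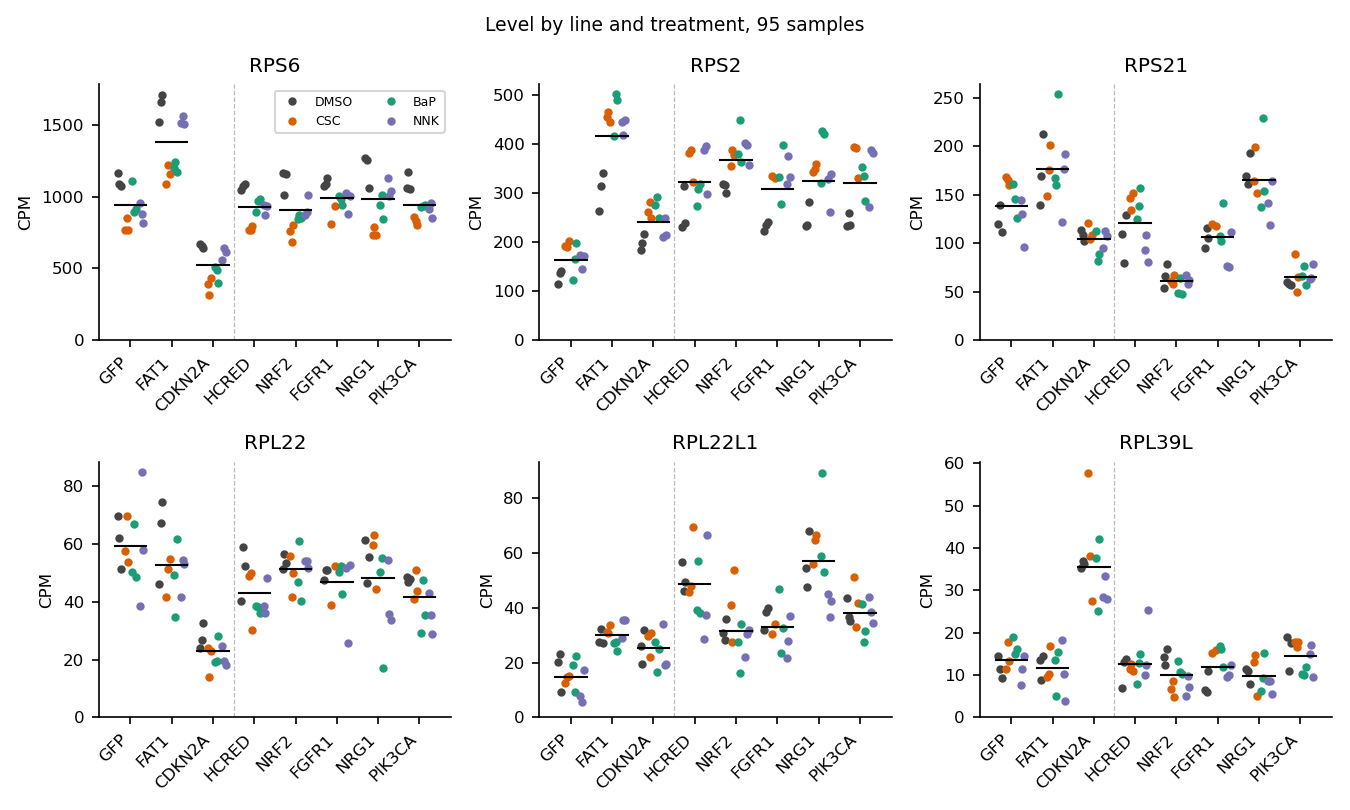
TMM-normalised CPM of RPS6, RPS2, RPS21, RPL22, RPL22L1 and RPL39L in the 95 samples, by line on the horizontal axis and by treatment in colour. RPS6 is lowest in CDKN2A (314 to 670.3 CPM), RPS21 is lowest in NRF2 and PIK3CA, and RPL39L stands out in CDKN2A.

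Differences of members were set beside those of their chromosomal neighbours, the other tested genes averaging at least 10 reads that start within 5 Mb on GRCh37. Over the 73 members with that count, which share libraries and in part neighbours, Spearman's rho between a member's log2 difference and its neighbours' median was 0.77 in CDKN2A, 0.75 in NRF2, 0.62 in PIK3CA, 0.57 in FAT1, 0.53 in FGFR1 and 0.48 in NRG1. With the chemicals against DMSO it was 0.36 with CSC, 0.48 with BaP and 0.53 with NNK, so a positive relation was present in all 9 comparisons. RPS6 (chr9:19375713-19380234, minus strand) is one of the clearest cases: its 19 neighbours had a median of -0.995 in CDKN2A and 18 were lower, beside -0.84 for RPS6. CDKN2A itself (chr9:21967751-21995300), the gene targeted in this line, starts 2.59 Mb from RPS6, and no other line had a member within 5 Mb of its targeted gene.

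RPS21 (chr20:60962159-60963576) had 43 neighbours in NRF2, of which 38 were lower, and their median was -0.83 in NRF2 and -0.94 in PIK3CA beside -1.01 and -0.92 for RPS21. In NRG1 the neighbours were at 0.27 beside 0.43. In FGFR1, where RPS21 was at -0.16 without passing, 39 of 43 neighbours were lower (median -0.32). RPS25 (chr11:118886422-118889401) was at 0.93 in CDKN2A with 45 of 45 neighbours higher (median 0.90), and RPL36A (chrX:100645812-100651143) was at -0.65 in FAT1 with 16 of 16 lower (median -0.75). These members thus moved with the genes around them. Others did not: RPL22 (chr1:6245080-6269449) was at -1.33 in CDKN2A where its 70 neighbours had a median of 0.016. RPL22L1 (chr3:170582664-170587997) was at 1.08 in FAT1 where its neighbours had -0.27. In CDKN2A, however, RPL22L1 was at 0.80 with 16 of 16 neighbours higher (median 0.71). RPL39L was at 1.36 in CDKN2A, above the median of 0.71 of its neighbours, of which 41 of 43 were higher. RPS2 (chr16:2012059-2014842) was at 1.33 in FAT1, above the median of 0.71 of its neighbours, of which 92 of 94 were higher.

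In FAT1 the members were above their neighbours' median in 70 of 73 cases, by a median of 0.34. The number was 70 in NRG1, 64 in FGFR1, 63 in PIK3CA and 55 in NRF2, with median gaps between 0.078 and 0.12, and 29 in CDKN2A. With the chemicals it was 37 with CSC, 32 with BaP and 27 with NNK. What moved members together with their neighbours was not tested.

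**Figure D4:**
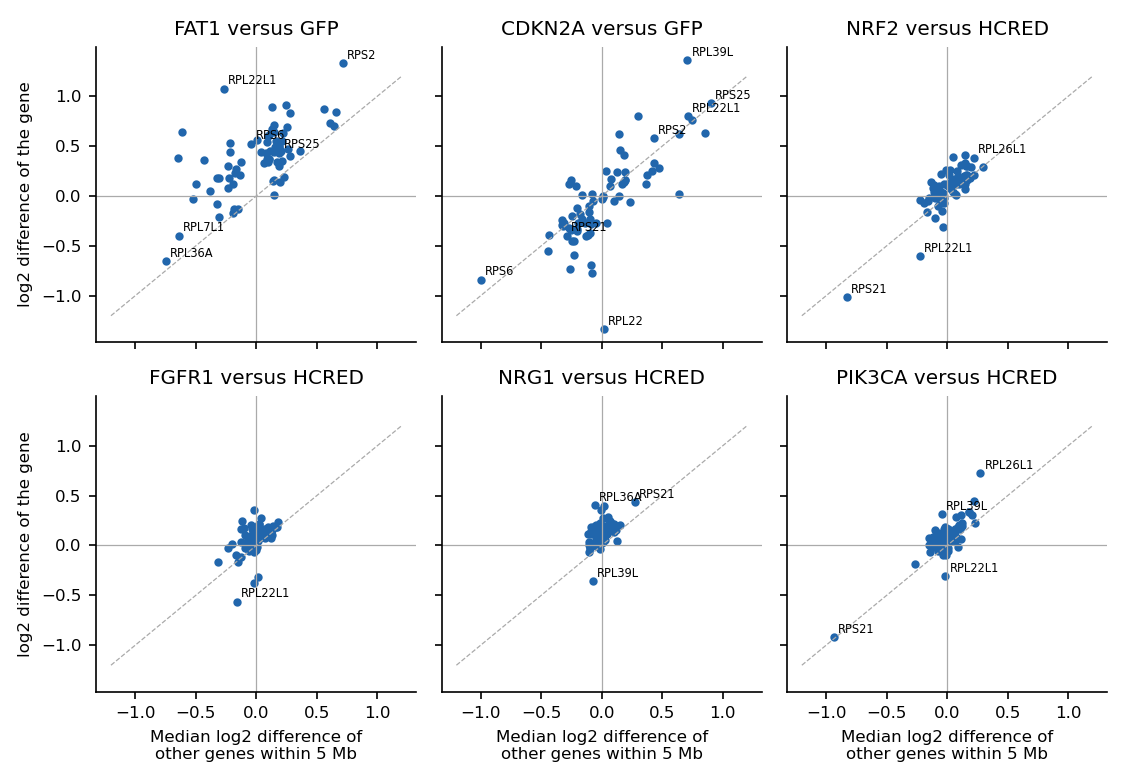
Log2 difference of each ribosomal protein gene with a mean count of at least 10 (vertical axis, 73 points per panel) against the median log2 difference of other genes starting within 5 Mb (horizontal axis), for the 6 lines against their control. Points near the diagonal moved with their surroundings, as RPS6 in CDKN2A and RPS21 in NRF2 and PIK3CA did, and in FAT1 70 of 73 points lie above it.

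The 3 tobacco-related chemicals were each compared with DMSO over the 8 lines, with line as a term, and share the DMSO samples. With each, members lay on both sides of DMSO. With CSC 27 of 80 rose and 27 fell (27.2% of all tested genes higher, 28.4% lower), with BaP 23 and 23 (26.4% and 25.1%), and with NNK 22 and 28 (25.9% and 25.8%). In either direction 55.6%, 51.4% and 51.7% of all genes passed. The median of the members was -0.0065, 0.018 and -0.039. After correction for GC content and exon length in each sample the calls were 30 higher and 17 lower with CSC, 27 and 13 with BaP, and 19 and 10 with NNK, against 30 and 23, 22 and 24, and 22 and 28 for the same genes without it, so the balance of rises and falls depends on this step. Over all genes with a known GC content the share that passed went from 56.6% to 35% with CSC, from 52.9% to 25.6% with BaP and from 53.4% to 16.4% with NNK. In the HCRED and GFP lines only, 23 of 79 members passed with BaP and 18.9% of all genes did. Within single lines, treated and DMSO samples were separate in opposite directions in at least 1 line each in 8 of 80 members with CSC (7.43% of all genes), in 1 with BaP (5.9%) and in 2 with NNK (5.3%).

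Which members rose followed the base composition of their transcripts. Spearman's rho between GC content and log2 difference over the 80 members, which share libraries, was 0.50 with CSC, 0.65 with BaP and 0.68 with NNK, and over all genes with a known GC content 0.70, 0.72 and 0.77. Of the 20 members of highest GC content (from 53.6%), 14 rose and 3 fell with CSC, 15 and 1 with BaP, and 14 and 0 with NNK. Of the 20 of lowest GC content (up to 44.4%), 4 rose and 9 fell with CSC, 1 and 10 with BaP, and 1 and 14 with NNK. In the comparisons of lines the same rho over the members was between 0.038 and 0.23. Whether the relation with GC content arose in the cells or in the libraries was not tested.

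**Figure D5:**
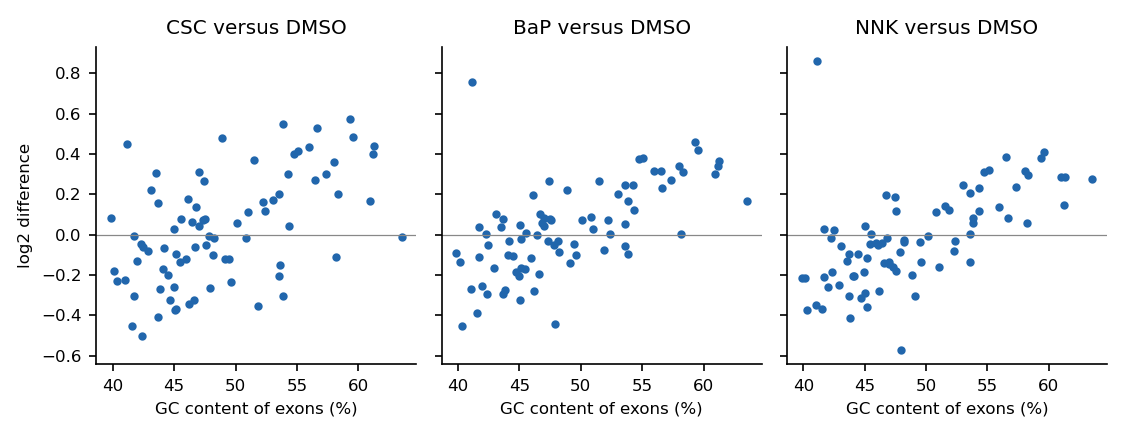
Log2 difference of the 80 ribosomal protein genes with CSC, BaP and NNK against DMSO (vertical axis) by GC content of the transcript in percent (horizontal axis), in 1 panel per chemical. The points rise from left to right in each panel, with rho of 0.50, 0.65 and 0.68.

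RPS6 fell with all 3 chemicals before that correction. It was at 642 to 1710.4 CPM (median 1085) with DMSO, 314 to 1222 CPM (median 785) with CSC, 399 to 1239 CPM (median 934) with BaP and 555 to 1558 CPM (median 938) with NNK over all lines. The ranges, which span lines of different level, overlapped, and the line mean was below that with DMSO in 8 of 8 lines for each chemical. The log2 differences were -0.50 (SE 0.026, adjusted p = 3.77e-32), -0.29 (SE 0.025, adjusted p = 4.30e-18) and -0.19 (SE 0.022, adjusted p = 3.10e-12), and after the correction they were -0.27, -0.10 and 0.036, a change of sign with NNK. RPS27A, whose product is made as a fusion with ubiquitin, was at 186 to 309.7 CPM (median 265) with DMSO, 149 to 232 CPM (median 196) with CSC, 150.3 to 244 CPM (median 197) with BaP and 116 to 275.1 CPM (median 201) with NNK. It was lower in 8 of 8 lines with each, at log2 differences of -0.45 (SE 0.041, adjusted p = 4.81e-17), -0.39 (SE 0.043, adjusted p = 9.68e-13) and -0.37 (SE 0.044, adjusted p = 1.14e-11), or -0.18, -0.16 and -0.10 after correction.

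Of the MDM2-binding large-subunit proteins, RPL5 and RPL23 fell with each chemical before that correction. Corrected values of RPL5, RPL11 and RPL23 are not reported here. RPL5 was at 533 to 922 CPM (median 679) with DMSO, 378 to 789.9 CPM (median 516) with CSC, 385 to 754 CPM (median 537) with BaP and 439 to 818 CPM (median 533) with NNK, lower in 8 of 8 lines each time. Its log2 differences were -0.37 (SE 0.025, adjusted p = 7.99e-24), -0.32 (SE 0.026, adjusted p = 5.64e-19) and -0.29 (SE 0.027, adjusted p = 3.35e-16). RPL23, at 417 to 801 CPM (median 511) with DMSO and 288 to 667 CPM (median 404) with CSC, fell by 0.41 (SE 0.036, adjusted p = 1.31e-17) with CSC, and was at -0.29 with BaP and -0.30 with NNK, both past the threshold. RPL11, which spanned the narrowest range of all members over the 32 combinations (0.515 on the log2 scale), was at -0.10 (SE 0.034, adjusted p = 0.00877) with CSC and at -0.031 and -0.028 without passing with BaP and NNK. In FAT1 all 3 rose, RPL5 by 0.49, RPL11 by 0.22 and RPL23 by 0.67, and in CDKN2A RPL5 was at -0.27 and RPL23 at 0.16, both called, with RPL11 at -0.11 (adjusted p = 0.0516).

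Rises with the chemicals were shared by RPS2 and RPS9, small-subunit genes with transcripts of 59.6% and 59.3% GC. RPS2 was at 114 to 341 CPM (median 234) with DMSO, 190.1 to 464 CPM (median 349) with CSC, 122 to 501 CPM (median 326) with BaP and 145 to 448 CPM (median 335) with NNK. It was higher in 8 of 8 lines with each, at log2 differences of 0.49 (SE 0.035, adjusted p = 9.72e-23), 0.42 (SE 0.042, adjusted p = 1.44e-14) and 0.41 (SE 0.040, adjusted p = 1.79e-15), or 0.21, 0.12 and 0.13 after correction. RPS9 was at 98.1 to 161 CPM (median 131) with DMSO, 148 to 285 CPM (median 188) with CSC and 125 to 255 CPM (median 184) with BaP, higher in 8 of 8 lines with both, by 0.58 (SE 0.042, adjusted p = 3.54e-22) and 0.46 (SE 0.049, adjusted p = 1.20e-13). RPS28, a small-subunit gene, was at 18.001 to 43.1 CPM (median 30.7) with CSC against 11.6 to 35.5 CPM (median 19.6) with DMSO, overlapping ranges with a higher mean in 8 of 8 lines, and differed by 0.55 (SE 0.091, adjusted p = 1.91e-07). Corrected values of RPS9 and RPS28 are not reported here.

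RPL36A went against the trend with base composition. Its transcript has 41.1% GC, among the 20 lowest, and it was at 3.49 to 18.7 CPM (median 12.5) with DMSO, 4.99 to 34.7 CPM (median 20.2) with BaP and 9.09 to 32.6 CPM (median 21.7) with NNK. Ranges overlapped over all lines while the mean was higher in 8 of 8 lines with both. The log2 differences were 0.76 (SE 0.12, adjusted p = 1.97e-07) and 0.86 (SE 0.11, adjusted p = 1.33e-10), and 0.996 and 1.14 after correction. With CSC it was 0.45 (SE 0.11, adjusted p = 0.000518). In 52.4% of its windows there was no second copy, and its mean count was 16.2, so each sample rests on few reads. Among further named members RPL29 rose with NNK (0.38, SE 0.051, adjusted p = 2.99e-10), RPS24 fell with NNK (-0.41, SE 0.033, adjusted p = 2.16e-19), and RPL7 fell with BaP (-0.45, SE 0.14, adjusted p = 0.00576) and NNK (-0.37, SE 0.15, adjusted p = 0.0284). Corrected values of RPL29, RPS24 and RPL7 are not reported here.

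The 3 stalk genes, which recruit elongation factors to the large subunit, moved together with each chemical. RPLP0 was at 279.7 to 532 CPM (median 357) with DMSO, 272 to 548 CPM (median 414) with CSC, 301 to 546 CPM (median 425) with BaP and 309.9 to 583 CPM (median 435) with NNK, with overlapping ranges and a higher mean in 7 of 8, 7 of 8 and 8 of 8 lines. It rose by 0.17 (SE 0.031, adjusted p = 1.98e-06), 0.20 (SE 0.032, adjusted p = 1.45e-07) and 0.25 (SE 0.034, adjusted p = 1.66e-09), RPLP1 by 0.27, 0.26 and 0.19, and RPLP2 by 0.30, 0.27 and 0.24, all past the threshold. After correction RPLP2 was at 0.077, 0.038 and 0.060, and the corrected values of RPLP0 and RPLP1 are not reported here. In the knockouts the stalk genes rose in FAT1 (RPLP0 0.34, RPLP1 0.27, RPLP2 0.45) and fell in CDKN2A (-0.40, -0.12 and -0.39), and in NRF2 RPLP0 was at 0.13, past the threshold, with -0.082 in CSC-treated samples alone.

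Among paralogs RPL26L1 fell with CSC (-0.37, SE 0.10, adjusted p = 0.00121) and NNK (-0.36, SE 0.10, adjusted p = 0.00246), RPS27L with CSC (-0.30, SE 0.085, adjusted p = 0.00138) and NNK (-0.21, SE 0.089, adjusted p = 0.0408), RPL7L1 with CSC (-0.13) and BaP (-0.17), and RPL22L1 with NNK (-0.21, SE 0.086, adjusted p = 0.0310). After the correction RPL7L1 was at 0.0061 with CSC and RPL22L1 at 0.044 with NNK. None of the 6 paralogs rose with a chemical by limma-voom, at an unadjusted p under 0.05, or by edgeR or DESeq2. Their parents RPL22 and RPL26 fell with BaP (-0.25 and -0.18) and NNK (-0.26 and -0.31), RPL10 rose with CSC (0.37) and BaP (0.27), and RPL3 rose with NNK (0.23, SE 0.028, adjusted p = 2.10e-11) and BaP (0.12, or -0.016 after correction).

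Other genes of the ribosome's synthesis and of its companions were read from lists of general knowledge. The list counts stand beside these shares of all tested genes, higher and lower. They were 25% and 23.9% in FAT1, 29.4% and 28.3% in CDKN2A, and 10.4% and 11.2% in NRF2. In PIK3CA they were 14% and 13.8%, in FGFR1 7.25% and 6.23%, and in NRG1 5.86% and 4.91%. With CSC they were 27.2% and 28.4%, with BaP 26.4% and 25.1%, and with NNK 25.9% and 25.8%. Host transcripts of small nucleolar RNAs, which guide modification of ribosomal RNA, were 12 of 12 higher and 0 lower in FAT1, led by SNHG8 at 1.125 (SE 0.19, adjusted p = 9.79e-07), and 7 of 12 higher and 0 lower in NRG1, led by SNHG5 at 0.52 (SE 0.077, adjusted p = 6.90e-07). They were 5 of 12 higher and 3 lower in CDKN2A, 2 of 12 higher and 1 lower in NRF2, 1 of 12 higher and 1 lower in PIK3CA and 4 of 12 higher and 1 lower in FGFR1. With the chemicals they were 4 of 12 higher and 2 lower with CSC, 0 of 12 higher and 2 lower with BaP and 1 of 12 higher and 6 lower with NNK. Translation factors and other TOP transcripts were 14 of 21 higher and 2 lower in FAT1, led by EEF2 at 0.62 (SE 0.019, adjusted p = 1.97e-43), the factor that moves the ribosome along the message. In CDKN2A they were 4 of 21 higher and 12 lower, with the largest fall in TPT1 at -0.93 (SE 0.027, adjusted p = 2.16e-41), the tumour protein often taken as a model TOP transcript. They were 12 of 21 higher and 1 lower in NRF2, 12 of 21 higher and 1 lower in PIK3CA, 9 of 21 higher and 0 lower in FGFR1 and 7 of 21 higher and 0 lower in NRG1. With CSC, BaP and NNK these transcripts were 8 of 21 higher and 8 lower, 7 of 21 higher and 8 lower, and 8 of 21 higher and 9 lower.

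Genes of ribosome assembly and RNA polymerase I were 12 of 30 higher and 0 lower in PIK3CA, led by NOP16 at 0.55 (SE 0.12, adjusted p = 0.000186), and 14 of 30 higher and 2 lower in CDKN2A, where MYC, an activator of these genes, had the largest rise (1.66). In FAT1 the list was 13 of 30 higher and 8 lower, in NRG1 7 of 30 higher and 0 lower, in NRF2 3 of 30 higher and 3 lower and in FGFR1 1 of 30 higher and 4 lower. With the chemicals it was 7 of 30 higher and 13 lower with CSC, 4 of 30 higher and 12 lower with BaP and 5 of 30 higher and 11 lower with NNK, while MYC alone rose by 1.18, 0.78 and 0.71, the largest rise of the list each time. Without adjustment for base composition, assembly genes therefore had more falls than rises with each chemical. Among the members the balance of rises and falls with the chemicals depended on that step. Adjusted counts with the chemicals are not reported here for this list or the other lists.

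Mitochondrial ribosomal proteins, which serve a separate ribosome, were 25 of 76 higher and 14 lower in FAT1 (25% and 23.9% of all tested genes). In CDKN2A they were 30 of 76 higher and 12 lower (29.4% and 28.3%). In PIK3CA they were 18 of 76 higher and 1 lower, led by MRPL50 at 0.57 (SE 0.10, adjusted p = 1.00e-05). In the other overexpression lines few passed, 6 higher and 4 lower in NRF2, 1 and 1 in FGFR1, and 2 and 0 in NRG1. With CSC, BaP and NNK they were 21 of 76 higher and 25 lower, 15 of 76 higher and 24 lower, and 14 of 76 higher and 23 lower. Of all tested genes 27.2% were higher and 28.4% lower with CSC, 26.4% and 25.1% with BaP, and 25.9% and 25.8% with NNK. Of 10 p53 targets 5 rose and 3 fell with CSC, 4 and 2 with BaP and 4 and 2 with NNK. CDKN1A, the cyclin-dependent kinase inhibitor p21, was the largest called rise of the list each time among genes averaging at least 10 reads, by 0.97, 0.98 and 0.69. In the lines the p53 targets were 5 of 10 higher and 1 lower in FAT1, 4 of 10 higher and 0 lower in CDKN2A, 1 of 10 higher and 3 lower in NRF2, 2 of 10 higher and 4 lower in PIK3CA, 3 of 10 higher and 0 lower in FGFR1 and 1 of 10 higher and 1 lower in NRG1. Where one of these lists had 0 calls in a direction by limma-voom, 0 or 1 of its genes passed an unadjusted p under 0.05 and 0 passed by edgeR or DESeq2, except that of small nucleolar RNA hosts higher with BaP 2 passed unadjusted, 1 by edgeR and 0 by DESeq2.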

How the data were processed

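Counts were deposited by the authors as 1 whole number per RefSeq gene and sample, without normalization. Per the labels and the study's methods, SFL reads were trimmed (cutadapt 1.12), aligned to hg19 (STAR 2.5.2b) and counted with featureCounts, which leaves out multi-mapped reads. The depth of 287446 to 2116383 counted reads limits genes of low level.

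Samples were grouped by their labels. Counts were scaled by TMM in edgeR 4.0.16 (R 4.3.3), and CPM values are so normalised. Comparisons used limma 3.58.1 on voom-transformed values, 2-sided, with Benjamini-Hochberg adjustment over genes averaging more than 1 read in a fit and a threshold of 0.05. Chemicals were compared with DMSO with genotype as a term, and lines with their control with treatment as a term. Positions, GC content and lengths (MANE Select) came from GENCODE on GRCh37, where all 84 symbols matched, and start windows from RefSeq on GRCh38.p14.

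Named were RPLP0, RPS6, the other stalk genes, RPSA, the paralogs with their parents, RPL5, RPL11 and RPL23, up to 3 members per comparison with the largest called rise and fall at a mean count of at least 10, the 5 highest and 5 lowest levels, and the largest called rise and fall of each other list. Some genes that this rule covers are not reported here. The members and lists were chosen with earlier results of these data known. The tests were tested on simulated data. Alternatives comprised DESeq2 1.42.0, edgeR's quasi-likelihood test, other filters, scalings and lengths, a GC content and exon length correction (loess, span 0.3), a replicate block, left-out replicates and lines, and single treatments.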

Additional observations from a re-analysis of the deposited data

Results flagged for a closer look

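Within single lines, 2 of the named members had CSC and DMSO samples that were separate in opposite directions in different lines, and the difference between the lines was not tested. Groups held 3 samples, and CSC-treated FGFR1 held 2. Among all genes averaging at least 1 read, 7.43% had such opposite lines with CSC, 5.9% with BaP and 5.3% with NNK, and among the 80 members 8, 1 and 2 did.

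RPL39L, the RPL39 paralog, was at 15.1 and 15.8 CPM with CSC and at 6.41, 5.89 and 11.0 CPM with DMSO in FGFR1, a ratio of means of 1.99. In NRF2 it was at 6.63, 8.65 and 4.88 CPM with CSC and at 14.3, 12.3 and 16.2 CPM with DMSO, a ratio of 0.471. All these values rest on few reads per sample.

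RPS14, the small-subunit protein, was at 416 and 352 CPM with CSC in FGFR1 and at 279, 339.6 and 330.5 CPM with DMSO, a ratio of 1.21. The 3 lines with lower values were FAT1, with a ratio of 0.889, CDKN2A, with 0.814, and NRF2, with 0.836. In NRF2 the samples were at 353, 340.1 and 314 CPM with CSC and 390.2, 395 and 419 CPM with DMSO.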

How the results depend on the processing

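Of 199 recomputed counts and levels 157 stayed within 1.5 times their value or within the replicate spread and 42 did not. Of 4676 recomputed values of named genes 4300 kept their side of the threshold, 318 lost a call and 46 gained one. A further 12 changed sign where the main fit, the alternative or both called the gene. Changes of sign in values that neither called are counted among the 4300. The cause of these changes was not tested, except that fewer samples entered the fits of single treatments and with samples left out. Of the members, 23 passed with BaP in the HCRED and GFP lines only (18.9% of all genes), 29 with NNK after the GC correction (16.4%), and 35 in FAT1 with BaP-treated samples only (21.4%). NRF2 had 16, 4, 15 and 9 with DMSO-, CSC-, BaP- and NNK-treated samples only, FGFR1 0, 2, 0 and 4 (with BaP 8 at an unadjusted p under 0.05, and 0 by edgeR and DESeq2), NRG1 6, 1, 2 and 2, and PIK3CA 7, 9, 4 and 9. Of all genes 7.16%, 4.87%, 7.25% and 3.91% passed in the 4 fits of NRF2, 1.86%, 2.83%, 1.42% and 2.47% in FGFR1, 2.04%, 2.31%, 1.52% and 1.85% in NRG1, and 8.6%, 10.3%, 7.12% and 6.62% in PIK3CA. DESeq2's Wald test called 11 in FGFR1 and 13 in NRG1.

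With each replicate number, and for the chemicals each line, left out in turn, the counts were 45 to 54 with CSC, 39 to 46 with BaP, 42 to 48 with NNK, 56 to 61 in FAT1, 48 to 53 in CDKN2A, 19 to 26 in NRF2, 7 to 15 in FGFR1, 6 to 13 in NRG1 and 17 to 29 in PIK3CA. With no sample left out, 55.6%, 51.4% and 51.7% of all genes passed with CSC, BaP and NNK. In FAT1, CDKN2A, NRF2, FGFR1, NRG1 and PIK3CA 48.9%, 57.6%, 21.6%, 13.5%, 10.8% and 27.8% passed. Most shares of all genes in the fits with samples left out are not reported here. The 3 against 3 comparisons with DMSO gave 44 to 52 in FAT1, 34 to 40 in CDKN2A, 7 to 17 in NRF2, 0 to 1 in FGFR1, 1 to 8 in NRG1 and 3 to 8 in PIK3CA. There, leaving out 1 sample moved the count of NRF2 from 16 to 9 (HCRED replicate 1), 7 (NRF2 replicate 1) and 10 (NRF2 replicate 2), of FGFR1 from 0 to 1 (HCRED replicate 3), of NRG1 from 6 to 1 (HCRED replicate 1), 3 (HCRED replicate 2) and 3 (NRG1 replicate 1), and of PIK3CA from 7 to 3 (HCRED replicate 1), 4 (HCRED replicate 2) and 3 (PIK3CA replicate 2).

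Changes of sign are listed where the main fit, the alternative or both called the gene. The sign changed after the GC correction for RPL7L1 (0.0061) and RPL3 (-0.077) with CSC, RPL3 (-0.016) with BaP, and RPL22L1 (0.044) and RPS6 (0.036) with NNK, and in the HCRED and GFP lines only for RPSA (0.010) with CSC. In single treatments, an alternative added after seeing the data, it changed for RPS19 in FAT1 (0.0041, BaP), RPL10 in CDKN2A (-0.11, CSC), RPLP0 and RPL3 in NRF2 (-0.082 and -0.048, CSC), RPL39 in NRG1 (-0.12, NNK) and RPL22L1 in PIK3CA (0.016, NNK). The median level per kb was 196 CPM on MANE Select transcripts, 81.7 on the longest transcript and, as alternatives added after seeing the data, 60.1 on the union of exons and 441 on coding length. Blocking on replicate number (replicate block) gave counts of 54, 46 and 47 with CSC, BaP and NNK and 62, 55, 31, 19, 21 and 26 in FAT1, CDKN2A, NRF2, FGFR1, NRG1 and PIK3CA, so the block moved none of these counts by 1.5 times. The deviations of same-numbered samples correlated between -0.11 and 0.18, so the numbers were not taken to pair samples.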

Other observations

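Ribosomal protein genes are often used as reference genes in PCR, and RPLP0 and RPL13A, common choices picked after their values were seen, differed between lines here. RPLP0 passed the threshold in 7 of 9 comparisons, all 3 chemicals and the FAT1, CDKN2A, NRF2 and FGFR1 lines, and spanned 0.945 on the log2 scale between the highest combination mean (FAT1 with NNK) and the lowest (CDKN2A with DMSO). RPL13A spanned 1.75, from FAT1 with NNK to CDKN2A with BaP, and rose by 0.53 in FAT1 and fell by 0.78 in CDKN2A. RPS18, another common choice, had a mean count of 0.0211, under the read minimum, so its level could not be read. The median span of members with a mean count of at least 10 was 1.02, and RPL11 had the narrowest, 0.515. Over all 10062 genes of that count the median span was 1.24, so RPLP0 spanned less than the median gene.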
